A study of Arabidopsis thaliana with 14 samples.

Results

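The genes described are 45 members of the WRKY family of Arabidopsis thaliana, of 33602 genes counted. They are a list, taken by name and locus, of WRKY genes of groups I, II and III other than WRKY75 and its nearest relatives in group IIc. Whether the list holds every such gene was not checked, so counts by group are counts of listed genes. By WRKY group there were 11 genes of group I, 3 of IIa, 5 of IIb, 4 of IIc (WRKY12, WRKY13, WRKY50 and WRKY51), 6 of IId, 7 of IIe and 9 of group III. All 45 had a row in every library.

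WRKY proteins are plant transcription factors whose WRKY domain, a short conserved peptide followed by a zinc finger, binds the W-box, a DNA element with the core TTGAC. Group I carries a pair of such domains, group II 1 domain, and group III 1 domain with a different zinc finger. Many members act in leaf immunity, in responses to salicylic and jasmonic acid and in leaf senescence. W-boxes are common in promoters of WRKY genes themselves, and members can activate or repress one another and are switched on within minutes to hours by microbial signals, wounding and handling.

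RNA was sequenced from pools of 5 whole rosettes of plants that were 3 weeks old, grown in 12 h of light. Wild-type Col-0 was sprayed with water or with 50 µM estradiol, and N2102362 and N2102363, separate lines in which estradiol induces WRKY75, with 50 µM estradiol. Every spray held 0.001% Silwet-L77, a wetting agent, and rosettes were taken 3 h later. There were 3 libraries of Col-0 with water, 3 of Col-0 with estradiol and 4 of each line. No line plants sprayed with water were analysed here, so the lines were set against wild type under the same spray, and a difference present before the spray could not be told apart from one that followed it. The promoter that drives the inducible copy is not given in the sources used here. Replicate 4 of both lines carried a date in its file name that no other library carried, and Col-0 had no replicate 4. The sources give 4 replicates for the lines in one place and 3 in another.

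Total counts were 20456036 to 22605970 per library. WRKY75 stood at 0.428 to 2.69 CPM (read counts scaled to equal library totals) in the 6 Col-0 libraries, at 28.2 to 82.1 CPM in N2102362 and at 76.8 to 167 CPM in N2102363. Leaf mesophyll markers (4 genes) summed to 8180 to 23106 CPM in every library. Of the root markers IRT1 and RHD6 were at 0 CPM in all 14 libraries, while PYK10 was detected at 20.3 to 67.1 CPM. AP1 and AP3, 2 of the 5 floral organ markers, were at or below 0.238 CPM. All 5 together summed to 1.16 to 4.67 CPM, and 3 of them passed the filter on low counts used for testing.

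Mean levels per transcript length in Col-0 with water ran from 0.0185 to 133 RPKM. In Col-0 with water WRKY33, which drives synthesis of the antifungal compound camalexin and is a substrate of the MAP kinases MPK3 and MPK6, was highest at 133 ± 119 RPKM (CPM per kilobase of exon; SD, n = 3). WRKY70, a group III factor that acts in salicylic acid signalling, followed at 95.8 ± 30 RPKM, WRKY15 of group IId at 53.1 ± 26.9 RPKM and WRKY53, a promoter of leaf senescence, at 46.1 ± 42.5 RPKM. These SDs were wide enough that the order of WRKY33, WRKY70, WRKY15 and WRKY53 did not hold beyond the spread. Next came WRKY25 at 44.3 ± 6.5 RPKM, WRKY40 at 39.1 ± 49.2 RPKM, WRKY26 at 31.4 ± 9.75 RPKM, WRKY11 at 27.5 ± 13.9 RPKM, WRKY18 at 25.7 ± 16 RPKM and WRKY3 at 21.6 ± 1.87 RPKM. In all, 18 of the 45 reached 10 RPKM in this group.

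Below 10 RPKM in Col-0 with water came WRKY32 at 9.5 RPKM, WRKY20 at 9.41 RPKM, WRKY39 at 8.98 RPKM, WRKY46, a group III factor that acts with WRKY54 and WRKY70, at 8.68 RPKM, WRKY2 at 8.16 RPKM and WRKY7 at 6.76 RPKM. WRKY17, WRKY29, WRKY30, WRKY27, WRKY65, WRKY60 and WRKY50 lay between 3.95 and 2 RPKM. WRKY44, also named TTG2 and needed for trichomes and seed coats, was at 1.64 RPKM, and the flowering-time regulators WRKY12 and WRKY13 were at 1.32 and 1.09 RPKM. WRKY55, WRKY14, WRKY41, WRKY51 and WRKY42 lay between 1.00 and 0.479 RPKM and WRKY38 at 0.187 RPKM. Factors of 1 group were thus spread over the whole range, as WRKY33 and WRKY34, both of group I, stood at its ends.

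The lowest level belonged to WRKY34, which acts in pollen, with 0 to 2 counts per library and 9 counts in all 14 libraries together. WRKY9, WRKY31, WRKY35 and WRKY62 had at most 11 counts in any library. These 5 genes did not pass the filter on low counts, which left 40 members tested. In the 7 libraries where WRKY34 had 0 counts, a level of up to 3 counts, 0.133 to 0.147 CPM before scaling, could have gone undetected, counting error only.

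**Figure D1:**
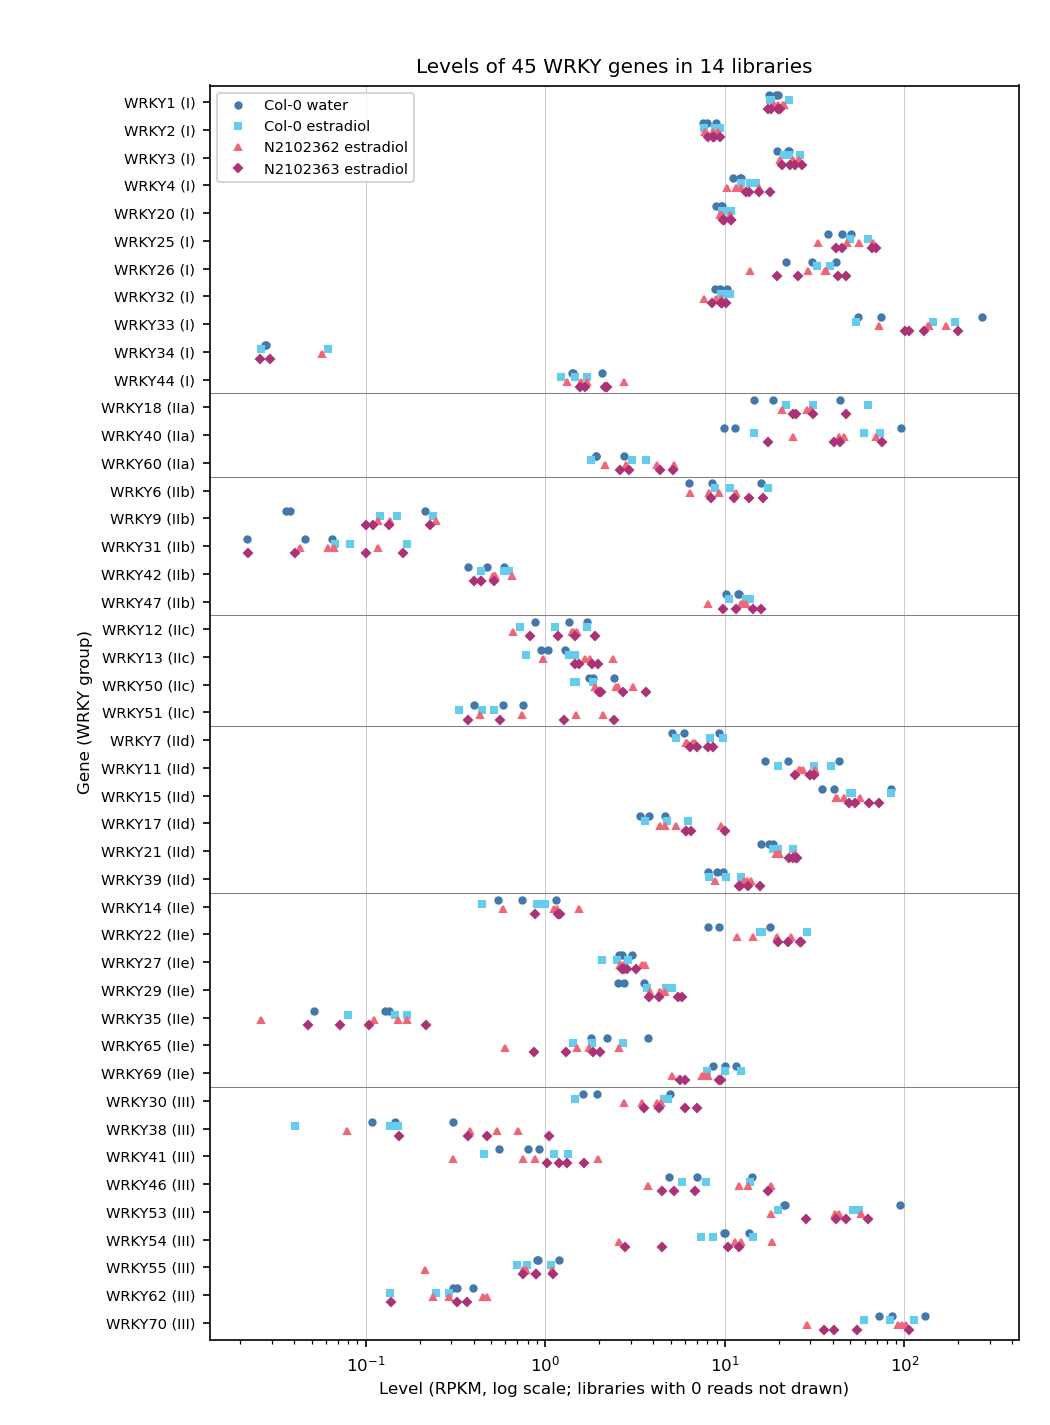
Level of each of the 45 WRKY genes in RPKM (log scale) in 14 libraries, ordered by WRKY group; each symbol is 1 library of Col-0 with water, Col-0 with estradiol, N2102362 or N2102363, and libraries with 0 reads are not drawn. Group averages of Col-0 with water run from 0.0185 RPKM for WRKY34 to 133 RPKM for WRKY33, and genes such as WRKY20 form tight clusters where WRKY40 and WRKY33 spread widely.

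Induction of WRKY75 went with no called change of any member tested. Against Col-0 with estradiol, 0 of 40 members were called at an adjusted p under 0.05 by edgeR's quasi-likelihood test in N2102362, in N2102363 or in the mean of both lines, where 0.0305%, 0.0254% and 0.0356% of the 19666 genes tested were called. DESeq2 also called 0 members in these comparisons. In the mean of the lines 20 members were higher and 20 lower, with a median log2 fold change of 0.00 beside 0.00 over all tested genes, and 38 of 40 fold changes lay within 1 on the log2 scale. Their standard errors ran from 0.06 to 0.73 with a median of 0.26. WRKY38 at 2.04 and WRKY51 at 1.44 on the log2 scale were not called. The 0 calls thus do not exclude changes of that size in the less steady genes. In bulk rosettes, fewer cells of a type and less RNA per cell cannot be told apart.

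In all, 4 members passed an unadjusted p under 0.05 in the mean of the lines, 10% of 40 beside 9.33% of all tested genes, a share near that of genes at large. Without replicate 1 of Col-0 with estradiol the count was 1, beside 4.22% of genes, and with any other single library left out it was 3 to 5. Of these WRKY50 and WRKY51, group IIc factors that act in the salicylic acid repression of jasmonic acid signalling, and WRKY38, a group III gene induced by salicylic acid that restrains basal defence, had higher values, and WRKY69 of group IIe lower values. None passed the adjusted test.

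WRKY50 was at 2.01, 1.61 and 1.58 CPM in replicates 1 to 3 of Col-0 with estradiol. It was at 3.35, 2.75, 2.67 and 2.06 CPM in N2102362 and at 3.92, 2.22, 2.95 and 2.16 CPM in N2102363. All 8 line libraries lay above all 3 of Col-0 with estradiol, narrowly so for replicate 4 of N2102362, but the Col-0 libraries with water, at 2.60, 1.90 and 1.99 CPM, overlapped the lines. The log2 fold change against Col-0 with estradiol was 0.67 ± 0.22 (SE; adjusted p = 0.520) for both lines averaged, 0.65 ± 0.24 (adjusted p = 0.852) in N2102362 and 0.70 ± 0.24 (adjusted p = 0.431) in N2102363, comparisons that share the 3 Col-0 libraries. WRKY50 was the sole member whose line libraries all lay to one side of Col-0 with estradiol, 2.5% of 40, where 1.29% of all tested genes lay wholly above and 1.13% wholly below.

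WRKY38 rested on few reads, with 1, 4 and 4 counts in Col-0 with estradiol and 8, 4 and 3 with water. In N2102362 it had 19, 11, 15 and 2 counts in replicates 1 to 4 and in N2102363 31, 14, 10 and 4. Replicates 1 to 3 of both lines lay above every Col-0 library, and replicate 4 lay within the Col-0 range. Its mean level in Col-0 with estradiol was 0.143 CPM with an SD of 0.0786 (n = 3), and the line means were 0.556 ± 0.349 and 0.668 ± 0.497 CPM (SD, n = 4 each). The log2 fold change was 2.04 ± 0.73 for both lines averaged (adjusted p = 0.520), 1.90 ± 0.79 in N2102362 and 2.17 ± 0.78 in N2102363.

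WRKY51 had a like shape against Col-0 with estradiol, where it was at 0.422, 0.314 and 0.492 CPM. It was at 1.99, 1.40, 0.702 and 0.411 CPM in N2102362 and at 2.29, 1.20, 0.532 and 0.351 CPM in N2102363. In Col-0 with water it was at 0.550, 0.713 and 0.378 CPM, so replicate 3 of both lines lay within the Col-0 range, unlike for WRKY38. Replicate 4 of both lines again lay within the Col-0 range. With both lines averaged its log2 fold change was 1.44 ± 0.61 (adjusted p = 0.528). WRKY69 had a value of -0.46 ± 0.20 (adjusted p = 0.528), from 9.90 to 15.4 CPM in Col-0 with estradiol and from 6.38 to 11.9 CPM in the lines, with overlap. Without replicate 4 of both lines, WRKY38 and WRKY51 joined WRKY50 as members whose line libraries did not overlap Col-0 with estradiol. These were 7.5% of 40 beside 2.91% of all genes in the same libraries, and 0 members were called.

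The 4 group IIc genes, which include WRKY12 and WRKY13, known for opposite effects on flowering time, all had higher mean-line values, with a median log2 fold change of 0.58, under TMM, RLE and DESeq2 scaling alike. Leaving out replicate 3 of Col-0 with estradiol made this 3 of 4, as did Col-0 with water as the reference. WRKY13 stood at 0.50 ± 0.26 (adjusted p = 0.528) and WRKY12 at 0.12. Among the others, group I had 4 of 10 higher, IIa 1 of 3, IIb 0 of 3, IId 3 of 6, IIe 4 of 6 and group III 4 of 8. Group medians outside IIc lay between -0.15 and 0.07. The abundant defence regulators had values within 1 SE of 0, with WRKY33 at 0.02 ± 0.47, WRKY40 at -0.13 ± 0.67, WRKY53 at 0.00 ± 0.48 and WRKY70 at -0.31 ± 0.39. Beside these, 3 of 3 dividing-cell markers had higher values in the lines, with a median of 0.58 and 0 called, as did 3 of 3 tested floral markers, with 0.80, and 3 of 4 leaf markers, with 0.26, and their part in the WRKY values was not tested.

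**Figure D2:**
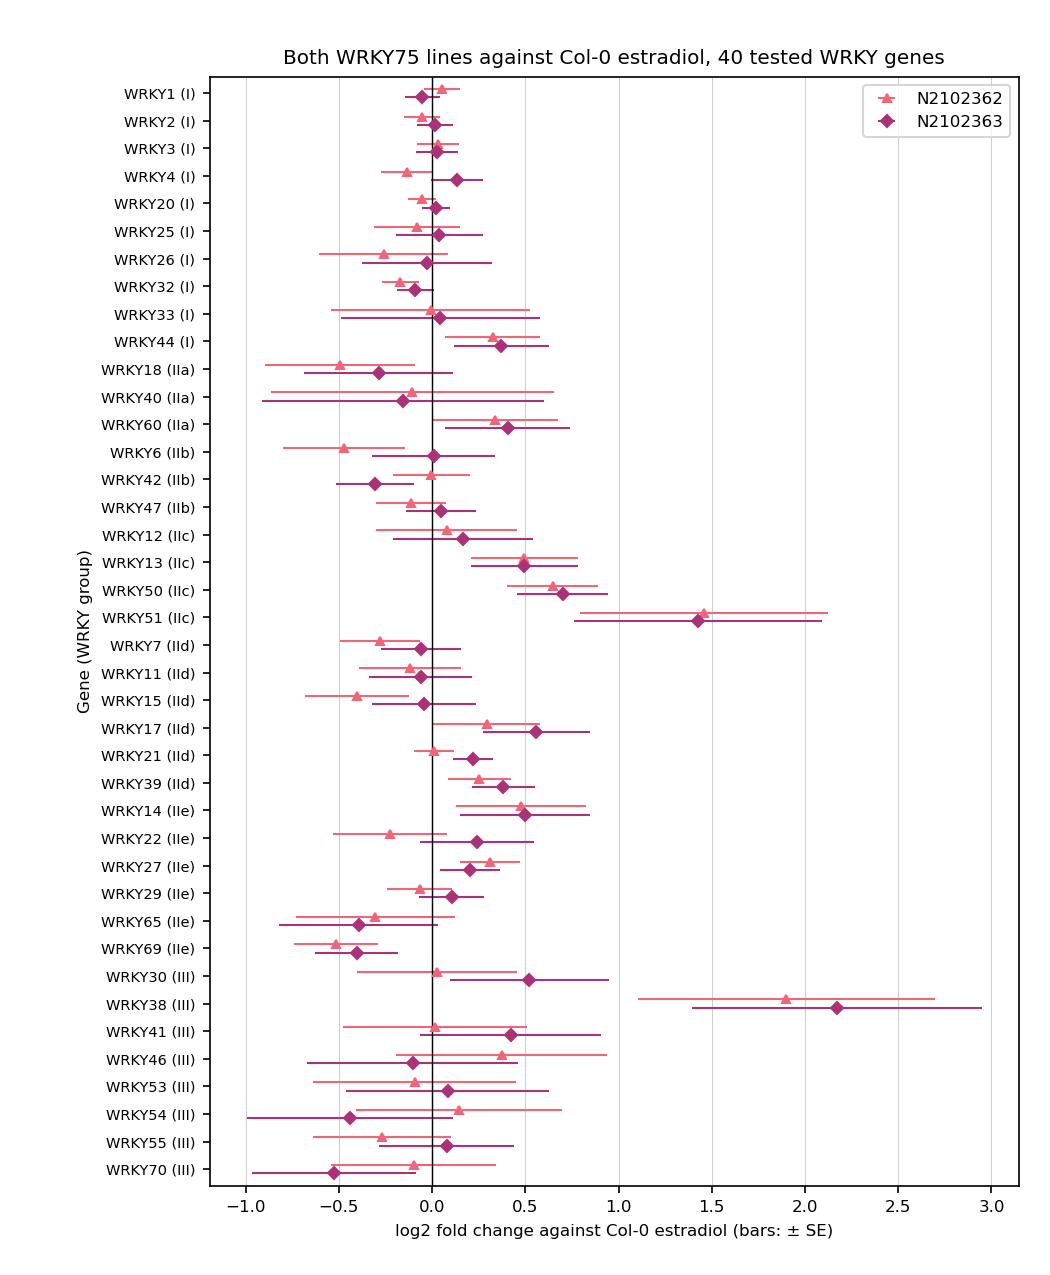
Log2 fold change of 40 tested WRKY genes in N2102362 and in N2102363 against Col-0 with estradiol, ordered by WRKY group; bars are 1 SE from edgeR's quasi-likelihood fit, and both lines share the 3 Col-0 libraries. Values of 36 genes in N2102362 and 34 in N2102363 lie within 0.5 of 0, WRKY38 and WRKY51 lie farthest to the right in both lines, and 0 of the genes were called.

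In N2102363 alone, WRKY39 of group IId, whose members bind calmodulin, had a value of 0.38 ± 0.17 (adjusted p = 0.445) and was, with WRKY50 and WRKY38, one of 3 members past an unadjusted p under 0.05, 7.5% beside 11.2% of all genes. That count was 1 without replicate 1 of Col-0 with estradiol, beside 6.18%, and 6 without its replicate 3, beside 15.8%. WRKY39 libraries, at 30.1, 27.4, 27.1 and 35.2 CPM, overlapped those of Col-0 with estradiol at 22.8, 18.3 and 27.8 CPM. WRKY13, WRKY38 and WRKY50 lay wholly above Col-0 with estradiol in this line, 7.5% beside 5.78% of all genes, and 0 lay wholly below, beside 5.4%. In N2102362 WRKY50 lay wholly above, 2.5% beside 2.95%, and 0 members wholly below, beside 2.39%, and 4 members passed an unadjusted p under 0.05, 10% beside 4.65%. The latter count was 1 without replicate 2 of Col-0 with estradiol, beside 7.31%, and 2 without its replicate 1, beside 2.31%. The 4 were WRKY50, WRKY38 and WRKY51, with higher values, and WRKY69, with a value of -0.51 ± 0.22 (adjusted p = 0.852).

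Between the lines 0 of 40 members were called, beside 0.00508% of all genes, and 0 passed an unadjusted p under 0.05, beside 2.34%. With 1 library left out this count was 0 to 4, with 4 of 40 beside 4.67% of genes without N2102362 replicate 1. The lowest p belonged to WRKY4, which acts in resistance to necrotrophic fungi, at 0.27 ± 0.13 higher in N2102363 (adjusted p = 1.000). For WRKY75 itself N2102363 had a value 1.57 ± 0.40 above N2102362 on the log2 scale (adjusted p = 1.000). No member lay wholly above or below the other line, beside 1.05% and 1.01% of genes.

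Estradiol itself was compared with water in Col-0, which carries no inducible copy. None of the 40 members was called by edgeR or DESeq2, where 0.0% of all genes were called by edgeR, and 3 members passed an unadjusted p under 0.05, 7.5% beside 1.58% of all genes. Without replicate 2 of Col-0 with water this count was 10, 24.4% beside 2.43%, and without replicate 1 or 3 of that group or replicate 3 of Col-0 with estradiol it was 1. WRKY29 and WRKY22, which act in the MAP kinase pathway below the flagellin receptor, and WRKY21 of group IId had higher values with estradiol. WRKY29 was at 4.95, 3.85 and 3.55 CPM with water and at 5.17, 6.59 and 7.04 CPM with estradiol. These did not overlap, and the log2 fold change was 0.61 ± 0.19 (adjusted p = 1.000). WRKY22 was at 12.3, 23.8 and 10.7 CPM with water and at 21.3, 20.8 and 38.2 CPM with estradiol, with overlap and a value of 0.77 ± 0.33. WRKY21 had a value of 0.26 ± 0.12. WRKY4, WRKY20 and WRKY29 lay wholly above water, 7.5% beside 2.32% of all genes, and 0 wholly below, beside 2.23%. The gaps were narrow. For WRKY4 the lowest estradiol library was at 31.72 CPM and the highest water library at 31.64 CPM, and for WRKY20 at 41.06 and 40.78 CPM. Over the 40 members 27 had higher values with estradiol and 13 lower, with a median of 0.13 beside 0.01 over all genes. All 11 touch and rapid stress genes also had higher values with estradiol, with a median of 0.33 and 0 called, and their part in the WRKY values was not tested.

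Many WRKY genes differed widely between replicate pools of the same group. The SD of log2(CPM + 0.5) around the group means exceeded 0.5 in 11 of 40 members, 27.5%, beside 6.85% of all tested genes. Among genes with a mean of at least 10 CPM it did so in 8 of 24 members, beside 5.18%. The median SD was 0.378 over the members and 0.206 over all genes. In order, the variable members were WRKY40 with an SD of 1.14, WRKY54 with 0.859, WRKY46 with 0.819, WRKY53 with 0.809, WRKY33 with 0.792, WRKY70 with 0.675 and WRKY18 with 0.580, then WRKY30, WRKY51, WRKY65 and WRKY26 with 0.576 to 0.531. Just under 0.5 stood WRKY41 with 0.482 and WRKY6 with 0.474. Without replicate 2 of Col-0 with water, or without replicate 4 of both lines, the count was 10, and without all 3 of these libraries it was 6. The share over all genes was not recomputed without these libraries, so these counts have none beside them.

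By WRKY group, group III had 5 of 8 tested members above 0.5 with a median SD of 0.626, and IIa 2 of 3 with 0.580. Group I had a median SD of 0.169, yet held WRKY33 and WRKY26 as well as the steadiest members. The least variable were WRKY20 with an SD of 0.0748, WRKY2 with 0.115, WRKY32 with 0.116 and WRKY1 with 0.118, all of group I. WRKY20 kept between 38 and 45.8 CPM across all 14 libraries, a 1.20-fold range, where WRKY40 had a 9.63-fold range.

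**Figure D3:**
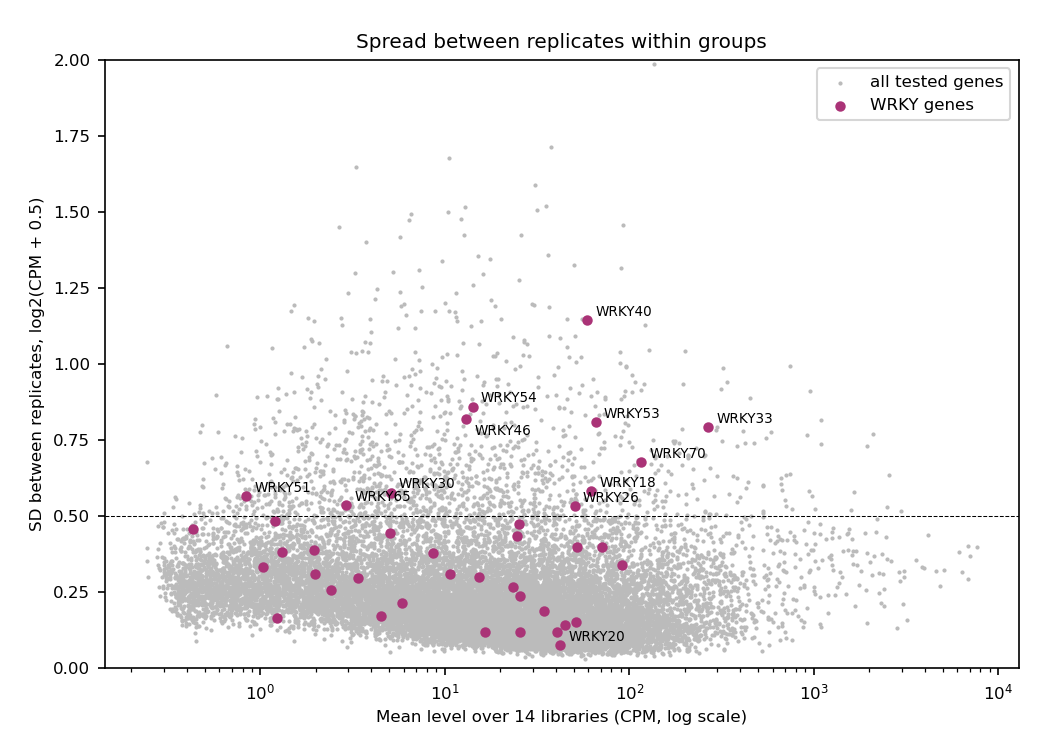
Within-group SD of log2(CPM + 0.5) against mean level over 14 libraries (CPM, log scale) for all 19666 tested genes (grey) and the 40 tested WRKY genes (purple); the dashed line marks an SD of 0.5, and 1 gene lies above the plotted range. The 11 variable WRKY genes lie above the line, led by WRKY40 at 1.14, and WRKY20 lies near the bottom at 0.0748.

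The variable members are given here by library, from the widest spread. WRKY40, which with WRKY18 and WRKY60 forms a set of interacting group IIa repressors of basal defence, was at 13.2, 127 and 15.2 CPM in replicates 1 to 3 of Col-0 with water. It was at 19.3, 97.3 and 79.2 CPM in Col-0 with estradiol, at 92.5, 61.2, 57.3 and 31.8 CPM in N2102362 and at 99.4, 57.9, 23 and 53.9 CPM in N2102363. Replicate 2 of Col-0 with water was higher than any line library, and the groups overlapped throughout.

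WRKY33 was at 112, 547 and 150.2 CPM with water and at 109, 386 and 295 CPM with estradiol in Col-0. In the lines it was at 348, 279.5, 275 and 146 CPM in N2102362 and at 406, 262, 215 and 203 CPM in N2102363. Its highest library was again replicate 2 of Col-0 with water, 4.90-fold above the lowest of that group. WRKY53 followed suit, at 32.5, 144 and 32.8 CPM with water, 30.1, 85.0 and 78.3 CPM with estradiol, 87.3, 62, 65.2 and 27.3 CPM in N2102362 and 95.4, 71.6, 63.4 and 43.1 CPM in N2102363. With such spread, the WRKY33 group means of 269.7, 263, 262 and 272 CPM did not differ beyond the replicate error.

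The group III genes linked to salicylic acid varied as well. WRKY70 was at 125, 191 and 107 CPM in Col-0 with water, 122, 167 and 88.2 CPM with estradiol, then 143, 150.2, 135 and 42.1 CPM in N2102362 and 157, 80.6, 52.4 and 59.9 CPM in N2102363. WRKY46 was at 6.60, 19.2 and 9.46 CPM in Col-0 with water, 7.81, 18.6 and 10.6 CPM with estradiol, 24.4, 18.2, 16.3 and 5.04 CPM in N2102362 and 23.6, 9.23, 7.06 and 6.07 CPM in N2102363. Both were lowest in replicate 4 of N2102362, and WRKY70 in replicates 2 to 4 of N2102363 lay below every Col-0 library.

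WRKY18, partner of WRKY40, was at 29.6, 89.3 and 37.4 CPM in Col-0 with water and at 44.5, 63.2 and 128 CPM with estradiol. In the lines it ran from 42.1 to 61.5 CPM in N2102362 and from 48.5 to 95.9 CPM in N2102363, within the Col-0 range. WRKY30, induced by oxidative stress, was at 2.1, 6.42 and 2.51 CPM in Col-0 with water, at 1.90, 5.91 and 6.20 CPM with estradiol, and between 3.55 and 9.01 CPM in the lines, with overlap.

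Within Col-0 with water all 11 variable members were highest in replicate 2. Within Col-0 with estradiol 8 were highest in replicate 2 and 3 in replicate 3, 7 were lowest in replicate 1, 1 in replicate 2 and 3 in replicate 3. In replicate 3 WRKY18 was thus highest at 128 CPM while WRKY70, WRKY65 and WRKY26 were lowest. In N2102362 replicate 1 was highest for 7 and replicate 2 for 4, and all 11 were lowest in replicate 4. In N2102363 replicate 1 was highest for 8 and replicate 2 for 3, and 8 were lowest in replicate 4 and 3 in replicate 3. Since the 11 were chosen by their spread, these counts describe them and support nothing further. Of all 40 tested members, 21 were highest in replicate 2 of Col-0 with water, beside 36.7% of all tested genes. In replicate 2 of Col-0 with estradiol 21 were highest, beside 36.2%. Lowest in replicate 4 were 26 in N2102362, beside 35.2%, and 23 in N2102363, beside 29.8%. The 45 members together took 0.192% of counts in replicate 2 of Col-0 with water and 0.0891% and 0.0936% in replicates 1 and 3, and between 0.0819% and 0.170% in the other groups.

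Touch and rapid stress genes, such as TCH3, a calmodulin-like gene induced by handling, were ranked by library in the same way. All 11 of that list were highest in replicate 2 of Col-0 with water, beside 36.7% of all tested genes. In Col-0 with estradiol 8 were highest in replicate 2, beside 36.2%, and 3 in replicate 3, beside 31.5%. In N2102362, 9 of 11 touch genes were lowest in replicate 4, as were all 11 variable WRKY genes, beside 35.2% of all tested genes. In N2102363, 10 of 11 touch genes were lowest in replicate 3, beside 21.5%, and 1 in replicate 4, beside 29.8%. Of the variable WRKY genes there, 3 were lowest in replicate 3 and 8 in replicate 4. The summed level of the touch list ran from 1040 to 2783 CPM with water, from 1574 to 2567 CPM in Col-0 with estradiol, from 1178 to 2535 CPM in N2102362 and from 1453 to 2442 CPM in N2102363. None of the 11 was at 0 in any library. Of the salicylic acid genes 10 of 11 were highest in replicate 1 of N2102362 and 11 of 11 in replicate 1 of N2102363. The part of either list in the WRKY spread was not tested.

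**Figure D4:**
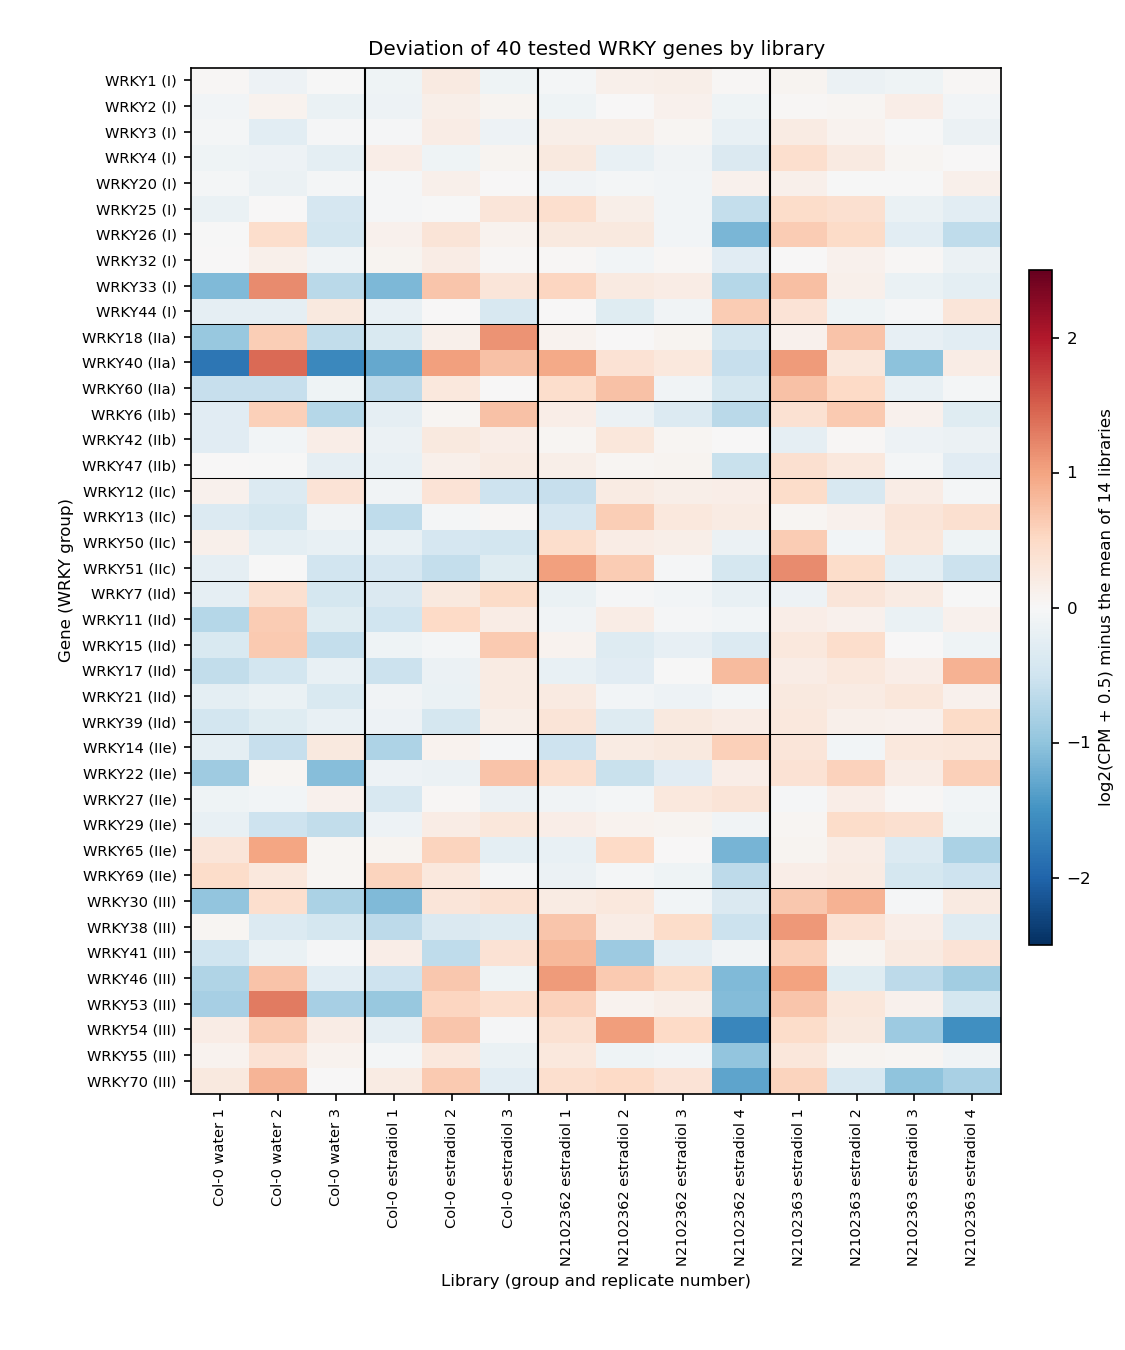
Deviation of each of 40 tested WRKY genes from its mean over 14 libraries, as log2(CPM + 0.5), with libraries in columns by group and replicate and genes in rows by WRKY group; red is above and blue below the mean. WRKY40, WRKY33 and WRKY53 are red together in replicate 2 of Col-0 with water, WRKY54 and WRKY70 are blue in replicate 4 of both lines, and WRKY1, WRKY2 and WRKY20 stay pale.

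Among promoters, 250 bases before the RefSeq start were searched for TTGACC or TTGACT on either strand, W-box cores counted at every position, so that matches sharing 1 end base would count separately. They were found in 16 of 45 members, 35.6%, beside 28.1% of 18986 other tested genes, and at least 2 were found in 9 members, 20%, beside 6.09%. In 1000 bases, 36 members held one, 80.0% beside 67.1%. The shorter TTGAC, whatever base followed, was found in 250 bases of 24 members, 53.3% beside 44.8%. Of the 11 variable members 4 held TTGACC or TTGACT in 250 bases (WRKY26, WRKY30, WRKY33 and WRKY53), as did 10 of the other 29 tested. The promoters of the 5 members with the largest spread are shown in that order, and that of WRKY17 because it was the sole member called higher in replicate 4. They are RefSeq TAIR10.1 sequence, 5′ to 3′ on the gene's strand, and capitals mark the cores, written as TTGACC or TTGACT or as the other strand's GGTCAA or AGTCAA.
WRKY40, chr1:30383311-30383560, plus strand: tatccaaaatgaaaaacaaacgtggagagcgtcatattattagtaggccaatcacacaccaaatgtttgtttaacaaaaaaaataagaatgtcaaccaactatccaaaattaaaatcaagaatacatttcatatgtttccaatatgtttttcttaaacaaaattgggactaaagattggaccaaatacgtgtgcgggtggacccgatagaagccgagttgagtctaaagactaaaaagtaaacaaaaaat
WRKY54, chr2:17002529-17002778, minus strand: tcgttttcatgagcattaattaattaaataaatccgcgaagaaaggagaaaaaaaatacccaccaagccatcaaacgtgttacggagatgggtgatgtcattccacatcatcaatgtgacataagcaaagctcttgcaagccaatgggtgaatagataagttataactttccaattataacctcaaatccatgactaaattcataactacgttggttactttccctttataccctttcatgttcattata
WRKY46, chr2:19044956-19045205, minus strand: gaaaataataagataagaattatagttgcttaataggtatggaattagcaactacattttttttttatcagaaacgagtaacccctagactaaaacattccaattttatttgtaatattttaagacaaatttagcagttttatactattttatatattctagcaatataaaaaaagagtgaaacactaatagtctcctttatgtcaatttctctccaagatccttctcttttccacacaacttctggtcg
WRKY53, chr4:12393983-12394232, minus strand: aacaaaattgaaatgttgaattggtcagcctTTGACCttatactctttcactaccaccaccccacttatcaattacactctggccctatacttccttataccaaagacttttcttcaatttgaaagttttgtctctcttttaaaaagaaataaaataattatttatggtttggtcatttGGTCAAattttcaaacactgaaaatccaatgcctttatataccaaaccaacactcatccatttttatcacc
WRKY33, chr2:16107985-16108234, plus strand: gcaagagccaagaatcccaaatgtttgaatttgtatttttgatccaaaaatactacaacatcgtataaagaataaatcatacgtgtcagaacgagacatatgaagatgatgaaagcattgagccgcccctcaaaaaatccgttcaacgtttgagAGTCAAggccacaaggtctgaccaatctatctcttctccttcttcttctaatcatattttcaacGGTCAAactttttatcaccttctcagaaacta
WRKY17, chr2:10439470-10439719, minus strand: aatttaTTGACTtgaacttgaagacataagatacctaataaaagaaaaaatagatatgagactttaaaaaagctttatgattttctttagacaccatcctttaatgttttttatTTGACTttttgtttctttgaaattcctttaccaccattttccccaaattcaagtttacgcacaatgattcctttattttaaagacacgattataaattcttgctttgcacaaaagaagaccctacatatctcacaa
WRKY40, WRKY54 and WRKY46, the 3 most variable members, held 0 of the TTGACC or TTGACT cores in this window, and WRKY53, WRKY33 and WRKY17 held 2 each. The windows of WRKY40 and WRKY46 did hold the shorter TTGAC, written as GTCAA. In 1000 bases WRKY40 held 2 TTGACC or TTGACT cores, and WRKY54 and WRKY46 held 1 each. Of the 9 members with at least 2 such cores in 250 bases, WRKY30, WRKY33 and WRKY53 were among the variable genes and WRKY32 among the steadiest. A match is a description of letters and not a bound site.

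Replicate 4 of the lines differed from replicates 1 to 3 in 8 of 41 members, 19.5% beside 12.7% of 19657 genes, in a fit of the 8 line libraries with line as a term. WRKY17 was called higher, beside 6.7% of genes, and 7 members were called lower, 17.1% beside 6.02% of genes. The lower ones were WRKY53, WRKY54 and WRKY38 of group III, WRKY26 of group I, WRKY6 and WRKY47 of group IIb and WRKY65 of group IIe. Over the 41 members 31 had lower and 10 higher values, with a median of -0.33 beside 0.00 over all genes. On an unadjusted p under 0.05, 19 members passed, 46.3% beside 29.9% of genes. The comparison was made because the file names set replicate 4 apart, and it is no treatment of the study.

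WRKY54, which with WRKY70 restrains senescence and acts in salicylic acid signalling, was at 16.3, 26.2 and 17.7 CPM in replicates 1 to 3 of N2102362 and at 3.70 CPM in replicate 4. In N2102363 it was at 17.3, 14.9 and 6.43 CPM and then 3.96 CPM. Both libraries of replicate 4 lay below all others of the series, where Col-0 ran from 10.6 to 20.5 CPM, and WRKY54 fell by 2.05 ± 0.43 on the log2 scale (adjusted p = 0.0257). WRKY26, which acts with WRKY25 and WRKY33 in heat tolerance, was at 57.4, 57.0, 45.9 and 21.7 CPM in N2102362 and 75.0, 67.7, 40.3 and 30.8 CPM in N2102363. Replicate 4 was the lowest of each line, and WRKY26 fell by 1.13 ± 0.23 (adjusted p = 0.0231).

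WRKY53 fell by 1.09 ± 0.22 (adjusted p = 0.0197), from the levels given above, and WRKY38 by 2.29 ± 0.62 (adjusted p = 0.0447) on few reads. WRKY6, a factor of senescence that represses the phosphate exporter gene PHO1, fell by 0.65 ± 0.17 (adjusted p = 0.0377). WRKY47 fell by 0.57 ± 0.12 (adjusted p = 0.0213) and WRKY65 by 1.31 ± 0.32 (adjusted p = 0.0317). WRKY70 had a value of -1.17 ± 0.43 (adjusted p = 0.115) and WRKY33 of -0.77 ± 0.25 (adjusted p = 0.0771), neither called. All 9 group III members had values below 0, WRKY62 included, which passed the filter in this fit. So did all 3 of group IIa and all 3 tested of IIb, where 49.4% of all tested genes had values above 0. Without replicate 1 of either line, or without replicate 4 of N2102362, 1 group III member had a value above 0.

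WRKY17, which with WRKY11 restrains resistance to Pseudomonas syringae, went the other way. It was at 7.14, 6.72, 8.19 and 14.6 CPM in replicates 1 to 4 of N2102362 and at 9.38, 9.94, 9.33 and 15.4 CPM in N2102363. Replicate 4 of each line was higher than every other library of the series, and WRKY17 rose by 0.85 ± 0.12 (adjusted p = 0.00800). WRKY11 had a value of -0.02. In all, 1 member lay wholly above and 16 of 40 wholly below replicates 1 to 3 in both lines, beside 16.8% of genes each way.

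**Figure D5:**
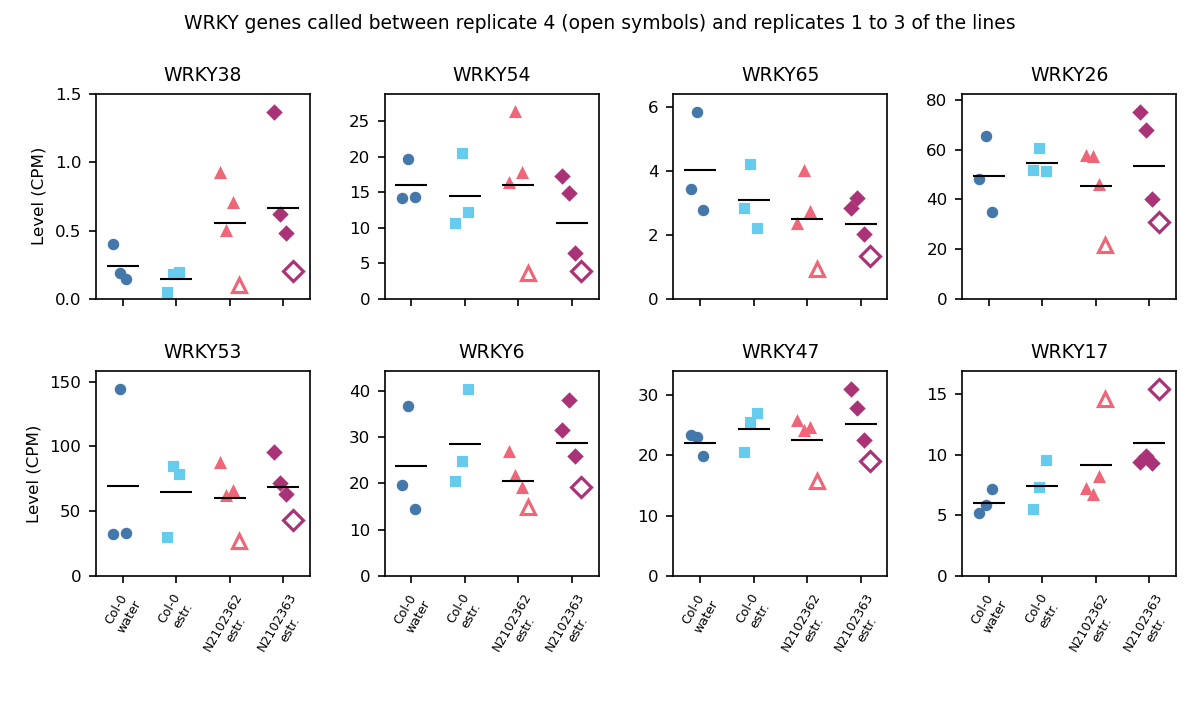
Level in CPM of the 8 WRKY genes called between replicate 4 (open symbols) and replicates 1 to 3 of the lines, in every library of the 4 groups; horizontal bars are group means. Replicate 4 is the lowest of its line for 7 genes, such as WRKY54 at 3.70 and 3.96 CPM, and the highest for WRKY17 at 14.6 and 15.4 CPM.

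The count of calls depended on single libraries, for all genes as for the members. Without replicate 4 of N2102362 it was 0, beside 0% of all genes, and without that of N2102363 it was 1 (WRKY17), beside 2% of all genes, fits in which the lone library is taken to vary like the others. It was 3 without N2102363 replicate 2, beside 5.72% of all genes, 5 without N2102362 replicate 3, beside 6.12%, and 5 without N2102363 replicate 1, beside 8.3%. Without N2102363 replicate 3 it was 17, 41.5% beside 19.7% of all genes. DESeq2 called 14, which included all 8, 35% of members with an adjusted p beside 17.5% of such genes.

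Lists of other genes also held calls in replicate 4, where 6.7% of all tested genes were called higher and 6.02% lower. All 4 leaf mesophyll markers rose, with a median of 0.72 and a summed level of 20140 to 23106 CPM against 9828 to 14788 CPM in replicates 1 to 3. WRKY75 was called higher in replicate 4, by 1.05 ± 0.25 (adjusted p = 0.0340). Of 9 MAP kinase cascade genes, 9 had lower values and 4 fell, among them MPK3 by 0.90 ± 0.18 (adjusted p = 0.0196). Of 11 salicylic acid genes, 11 had lower values and 2 fell, ICS1, the enzyme of salicylic acid synthesis, by 1.07 ± 0.27 (adjusted p = 0.0402) and its regulator SARD1 by 1.64 ± 0.27 (adjusted p = 0.0116). The summed level of the salicylic acid list was 97.3 to 107 CPM in replicate 4 and 142 to 521 CPM in replicates 1 to 3. Of 12 tested VQ-motif genes, which encode partners of WRKY proteins, 2 fell, SIB2 and VQ10, and of 11 touch genes 1, TCH3. Of 13 tested targets 3 fell, ABI5, FRK1 and again ICS1, which is on the salicylic acid list too. FRK1, a kinase gene used as a readout of flagellin signalling, fell by 1.5 ± 0.24 (adjusted p = 0.0116). PYK10 rose by 0.83 ± 0.16 (adjusted p = 0.0190) and AG, a floral organ gene, by 1.1 ± 0.25 (adjusted p = 0.0252) with a summed floral level of at most 4.67 CPM. Their part in the WRKY values was not tested, and the date of replicate 4 cannot be told apart from anything else that set these pools apart.

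In the comparison of the lines with Col-0 the same lists held 0 called genes. Of the MAP kinase cascade 8 of 9 had lower values in the mean of the lines, with a median of -0.19, and MPK4 stood at -0.19 ± 0.08 (adjusted p = 0.528). Of VQ-motif genes 9 of 12 had lower values, with a median of -0.26, MKS1, a partner of WRKY33, at -0.55 ± 0.22 (adjusted p = 0.528). Reported targets of members were split 6 higher to 7 lower of 13 tested, with a median of -0.01, and salicylic acid genes 8 to 3 with a median of 0.13. PHO1 stood at 0.22 ± 0.12 (adjusted p = 0.528). Against both Col-0 groups together 0 members were called, beside 0.646% of genes, and 10 passed an unadjusted p under 0.05, 25% beside 24.5%. Against Col-0 with water alone 0 were called, beside 0.0559% of genes, and 8 passed an unadjusted p under 0.05, 20% beside 21.2%. No member lay wholly above or below all 6 Col-0 libraries, beside 0.564% and 0.529% of genes.

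Libraries were made with a kit that does not mark strand. WRKY1, WRKY33, WRKY34, WRKY40, WRKY53 and WRKY69 each overlap 1 other gene in the files' coordinates (TAIR10), so reads in the overlap could not be told apart. WRKY33 (AT2G38470) lies on chromosome 2 from 16108361 to 16110766 on the plus strand beside AT2G38480, WRKY40 (AT1G80840) on chromosome 1 from 30383691 to 30385499 on the plus strand beside AT1G80850, and WRKY53 (AT4G23810) on chromosome 4 from 12392370 to 12393982 on the minus strand beside AT4G23800. WRKY17 (AT2G24570) lies on chromosome 2 from 10437398 to 10439298 on the minus strand with no overlapping gene. Only WRKY40 shared a stretch of at least 100 bases at 95% identity or more with a gene elsewhere, 175 bases at 96.0% with AT3G32090.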

How the data were processed

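Whole rosettes of Col-0 with water (3 libraries), Col-0 with estradiol (3) and lines N2102362 and N2102363 with estradiol (4 each) were sequenced as RNA. The authors deposited whole-number counts of reads per gene with no normalization visible. TAIR10 is the genome build, and TopHat2, HTSeq, SAMtools and FastQC the tools, per the submitters' processing notes. Versions, counting mode and the handling of reads with several matches are not given in the sources used here, and these could split reads of overlapping or similar genes. Per the labels' protocols libraries came from a TruSeq kit that does not mark strand. The line file names, not those of Col-0, are marked as combined, which the sources do not explain.

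All 14 libraries entered 1 fit in edgeR 4.0.16 (R 4.3.3) with TMM scaling and filterByExpr (minimum count 10, smallest group 3), which kept 19666 genes and removed 13936. The robust quasi-likelihood F test used group as the sole factor, with 10 residual degrees of freedom and a biological coefficient of variation of 0.196. Every adjusted p is from edgeR by the Benjamini-Hochberg method over all tested genes, with calls under 0.05, and standard errors come from the F statistic. Replicate 4 was compared in the 8 line libraries with line as a term (5 residual degrees of freedom, 19657 genes). The procedure was run on simulated counts in which every gene had the same dispersion, so that run does not cover the uneven spread of these genes. Levels are CPM on TMM-adjusted totals, RPKM over merged exon length of the RefSeq TAIR10.1 annotation, and errors of means are SD. Spread used log2(CPM + 0.5).

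Members and lists were chosen with earlier results of these data known. Any member could be named with its level, and full statistics went to members called or past an unadjusted p under 0.05 in a comparison and to up to 3 members per WRKY group with the highest level. Of the other lists, called genes or up to 3 with the lowest p were named. The lists were leaf, root, floral and dividing-cell markers, MAP kinase cascade, VQ-motif partners, reported targets, salicylic acid, and touch and rapid stress. Floral markers (5 genes) summed to 1.16 to 4.67 CPM and dividing-cell markers (3 genes) to 13.0 to 46.9 CPM over the groups.

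Of the files' 33602 gene IDs, 32835 had a RefSeq TAIR10.1 gene, and 32831 of these overlapped it on the same chromosome and strand. Across genes, deviations of same-numbered libraries correlated at 0.118 to 0.167 between Col-0 with estradiol and N2102363, and at 0.222 to 0.774 between the lines. Between Col-0 with water and N2102363 they correlated at 0.104 to 0.512. Between Col-0 with water and with estradiol they correlated at 0.584, 0.288 and 0.0506 in replicates 1 to 3. For N2102362 in the same order they were 0.130, 0.319 and -0.236 against Col-0 with water. Against Col-0 with estradiol they were 0.175, 0.672 and -0.149. Correlations between libraries of different numbers were not computed, so whether the numbers pair samples was not tested, and the labels do not say so. The closest pair of libraries within a group still differed, with a chi-square per degree of freedom of 14.6. Per the labels' protocols the replicates are biological, each a pool of 5 rosettes, and p-values measure the spread between these pools. Alternatives were RLE scaling, DESeq2 1.42.0, no filter, each library left out, the compared groups alone, a replicate block, replicate 4 left out and other Col-0 references. Protein sequences were not used here.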

Additional observations from a re-analysis of the deposited data

Results flagged for a closer look

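In groups of 4 libraries, a library was marked when its gap to the nearest other one was unusually large for the range of its group. Of 80 groups of member levels, 7 were marked, where chance alone marks about 1 in 20. In N2102362 replicate 4 WRKY18 was at 42.1 CPM, beside 58.2 to 61.5 CPM in the other 3 libraries. WRKY47 was at 15.7 CPM in that library, beside 24.0 to 25.7 CPM, and WRKY70 at 42.1 CPM, beside 135 to 150.2 CPM. WRKY12 was at 0.680 CPM in N2102362 replicate 1, beside 1.45 to 1.53 CPM. WRKY42 was at 1.58 CPM in N2102362 replicate 2, beside 1.23 to 1.26 CPM. In N2102363, WRKY14 was at 1.78 CPM in replicate 2, beside 2.37 to 2.42 CPM, and WRKY17 at 15.4 CPM in replicate 4, beside 9.33 to 9.94 CPM. Of the 7 marks, 4 were in replicate 4.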

How the results depend on the processing

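In the comparisons of estradiol with water, of each line and of their mean with Col-0, and of the lines with each other, 0 members were called in every alternative run. The replicate block also gave 0 called members in each, and their medians with the block were 0.12 for estradiol against water, 0.03, 0.17 and 0.09 for N2102362, N2102363 and the mean of the lines, and 0.10 between lines. With the block, 7 in place of 3 members passed an unadjusted p under 0.05 in N2102363, 17.5% beside 15.5% of all genes in that fit, and 2 in place of 0 between lines, 5% beside 6.55%. Between replicate 4 and replicates 1 to 3, DESeq2 called 14 members in place of 8, beside 17.5% of all genes, and leaving out 1 library at a time gave 0 to 17, beside 0% and 19.7%. The count of members whose groups did not overlap was 1 to 2 over single libraries left out, where 2.5% to 4.68% of all genes did not overlap without 1 line library and, without replicate 1 or 2 of Col-0 with estradiol, 4.96% or 7.45% (without replicate 3, 4.94% lay above and 5.17% below), and 3 without replicate 4 of both lines, beside 2.91%. The count with an SD above 0.5 was 6 without Col-0 water replicate 2 and replicate 4 of both lines. The share over all genes was not recomputed there. In 1000 bases 36 promoters held a core. Of 1942 recomputed fold changes of single genes, 174 changed sign, none of them called. With 1 library left out at a time, counts at an unadjusted p under 0.05 ran from 1 to 10 for estradiol against water, 1 to 5, 1 to 6 and 1 to 5 for N2102362, N2102363 and the mean of the lines, and 0 to 4 between lines. The same moved the median of the mean of the lines from -0.10 to 0.12. Low counts limit WRKY38, WRKY51 and the 5 genes not tested. The alternatives on the spread and the longer promoter window were chosen after seeing the data.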
